A study of Mus musculus with 6 samples.

Results

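The genes described here are 40 genes of ribosome biogenesis and RNA polymerase I, chosen by name for what their products do, and all 40 were found among the 15452 genes of the deposited count table. The table holds 6 mRNA-seq libraries of mouse Th17 cultures, the interleukin 17 producing form of CD4+ helper T cells. The 3 control libraries, called WT, came from mice whose alleles were floxed but which lacked Cre (PHD-fl/fl in the sample titles). The 3 knockout libraries came from mice that carried the same floxed alleles and CD4 Cre (PHD-fl/fl_CD4cre) and have the genotype label PDH knockout, PDH being pyruvate dehydrogenase, which feeds pyruvate carbon into the TCA cycle. Both groups therefore share the floxed alleles, and no group had Cre without them, so Cre and the deletion cannot be told apart. The titles spell the floxed alleles PHD where the genotype label has PDH, a difference that the labels do not explain. CD4 Cre is active from the thymus onward, before the naive cells were isolated from spleen and lymph nodes. The ages of the mice, the floxed gene and whether animals were pooled are not given in the labels, so each p-value reflects only how far these samples spread, which may be technical. All cultures ran for 3 days with plate-bound anti-CD3 at 5 µg/mL, anti-CD28 at 1 µg/mL, anti-IFNγ at 5 µg/mL, IL-6 at 30 ng/mL and TGFβ at 2 ng/mL.

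A ribosome is built in the nucleolus. RNA polymerase I transcribes a long precursor that holds the 18S, 5.8S and 28S ribosomal RNAs, small nucleolar ribonucleoproteins (snoRNPs) modify it, and a succession of assembly factors cuts and folds it into the small (40S) and large (60S) subunits. A naive T cell that is activated enlarges its nucleoli and makes many ribosomes before it divides, and the transcription factor MYC is a known driver of that programme. The precursor itself was not measured here, because the kit selects polyadenylated RNA, and 0 of the matched rows are annotated as nuclear ribosomal RNA. The 314 rows without a match to the annotation were given no type, so ribosomal RNA among them is not excluded. The values below are levels of the messenger RNAs for the machinery.

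Total counts ran from 33802154 to 40407124 per library. The T cell gene Cd4 was at 469 to 491 CPM (counts scaled to a common library total) in WT and 331 to 375 in knockout. All 8 listed B cell markers were in the table, and their summed level was 56.5 to 126 CPM in WT and 66.0 to 211 CPM in knockout. It was above 100 in WT replicate 2 and in knockout replicates 2 and 3. Knockout replicate 2 stood apart, with 4.948% of its counts on a single unnamed entry (ENSMUSG00000119584.1) that took 0.080% to 0.215% in the others. What kind of RNA this entry counts was not determined here, and ribosomal RNA is not excluded. The part of B cell RNA in the results below was not tested.

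Levels below are CPM scaled by TMM, a correction for composition, as mean ± SD with n = 3 libraries per group. Differences are log2 fold changes of knockout over WT ± SE. Each gene was tested with edgeR (quasi-likelihood), its p-value was adjusted by Benjamini and Hochberg over all 15361 genes tested, and a gene is called when the adjusted p is under 0.05. In a culture, fewer cells of a type and less RNA per cell cannot be told apart.

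The machinery did not move as a block. Of the 40 genes, all of which were tested, 12 rose in the knockout, 5 fell and 23 were not called. Of all genes tested, 47.6% were called, 23.1% higher and 24.5% lower, against 30% and 12.5% of the 40. Unadjusted p-values were under 0.05 for 19 of the 40 and for 55.0% of all genes. The median log2 fold change of the 40 was 0.046, and that of all genes 0.0087. Among the 5959 genes within the range of WT levels that the 40 span (31.9 to 2360 CPM), 16.5% were higher and 38.4% lower, with a median of -0.11. The 3 knockout values lay above all WT values in 13 of the 40 and below them in 5, where 28.8% and 29.4% of all genes did so. The changes were moderate in size: 2 of the 40 rose by at least 1.5-fold and 0 fell by as much. The split depended on scaling, since upper-quartile factors gave 17 higher and 2 lower and moved the share of all calls that were higher from 48.53% to 59.95%. The number called lower was 3 without WT replicate 1, 3 without WT replicate 2 and 8 without WT replicate 3. With WT replicate 2 and knockout replicates 2 and 3 left out, which leaves knockout replicate 1 alone, 17 were higher and 2 lower.

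**Figure D1:**
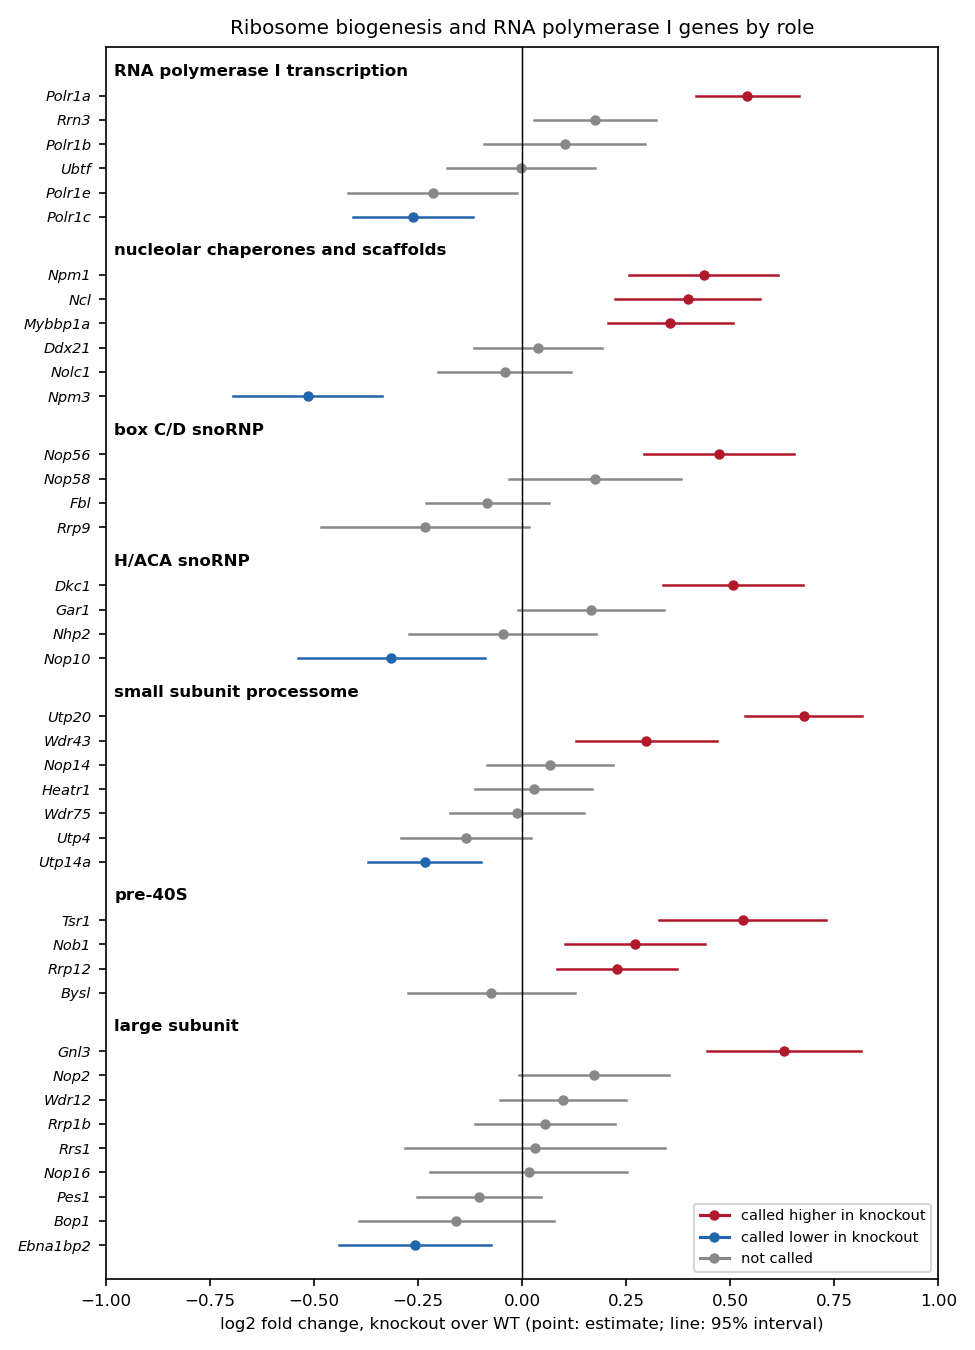
Log2 fold change of knockout over WT for each of the 40 genes, grouped by role, with the 95% interval of the estimate as a line and the edgeR call as the colour. Every role holds at least 1 gene called higher, and 5 of the 7 roles also hold 1 called lower.

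Within RNA polymerase I itself the genes of the subunits went apart. Polr1a (ENSMUSG00000049553.12), which encodes the largest, catalytic subunit, was at 118, 124 and 119.7 CPM in WT and at 181, 169.6 and 176 CPM in knockout. These groups lay well apart, with the log2 fold change at 0.54 ± 0.06 (adjusted p = 8.21e-05). Polr1c (ENSMUSG00000067148.16), whose product is shared with RNA polymerase III, was at 80.9, 79.4 and 79.9 CPM in WT and 61.7, 70.6 and 68.0 CPM in knockout (-0.26 ± 0.06, adjusted p = 0.00798). All 3 of its knockout values were below the narrow WT range. Polr1b, the second-largest subunit, which forms the catalytic site together with the product of Polr1a, did not follow it. It was at 74.1, 88.1 and 69.2 CPM in WT and 85.2, 83.3 and 79.8 CPM in knockout, an overlap (0.10 ± 0.09, adjusted p = 0.353). Polr1e, a subunit of the enzyme's initiation and elongation subcomplex, was at 31.9 ± 2.86 and 27.5 ± 2.31 CPM (-0.21 ± 0.09, adjusted p = 0.0766).

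Ubtf and Rrn3, which act at initiation by RNA polymerase I, were not called. Ubtf, which encodes the architectural factor UBF that holds ribosomal genes open, had mean levels of 215.4 ± 24.1 (WT) and 215.2 ± 6.79 CPM (knockout). The log2 fold change was -0.0017 with a 95% interval from -0.18 to 0.18. Rrn3, which encodes TIF-IA, the factor that recruits the polymerase in response to growth signals, was at 91.5, 104 and 95.5 CPM in WT and 109, 115 and 105 CPM in knockout. The groups did not overlap, by a small margin, and the test narrowly missed its threshold (0.17 ± 0.07, adjusted p = 0.0511). DESeq2 placed Rrn3 just past it (adjusted p = 0.0499), and it was also called with WT replicate 2 left out (adjusted p = 0.0135). Limma-voom did not call it (adjusted p = 0.0561). Leaving out any other single library did not either (edgeR adjusted p from 0.0623 to 0.209). Of 17 alternatives 7 called it.

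The nucleolar chaperones include the most strongly sequenced of the 40 genes. Npm1 (ENSMUSG00000057113.14), nucleophosmin, was at 2283, 2500.1 and 2297 CPM in WT and 3433, 3245 and 2906 CPM in knockout (0.44 ± 0.08, adjusted p = 0.00176). Ncl (ENSMUSG00000026234.13), nucleolin, which binds the nascent precursor and its chromatin, was at 2263, 2483 and 2283 CPM in WT and 3320.2, 3098 and 2839 CPM in knockout (0.40 ± 0.08, adjusted p = 0.00259). Both rose in every knockout library, highest in replicate 1 and lowest in replicate 3. Npm3 (ENSMUSG00000056209.8), a smaller relative of nucleophosmin that binds to it, went the other way. It was at 112, 130.4 and 107 CPM in WT and 82.8, 84.8 and 77.1 CPM in knockout (-0.51 ± 0.08, adjusted p = 0.000733), the largest decrease among the 40. Mybbp1a (ENSMUSG00000040463.17), a nucleolar protein that binds MYB and p53, was at 515, 535 and 483 CPM in WT and 692, 633 and 638 CPM in knockout (0.36 ± 0.07, adjusted p = 0.00208). The helicase gene Ddx21 and the scaffold gene Nolc1, which carries snoRNPs, were not called (0.04 ± 0.07 and -0.04 ± 0.07, adjusted p = 0.679 and 0.655).

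**Figure D2:**
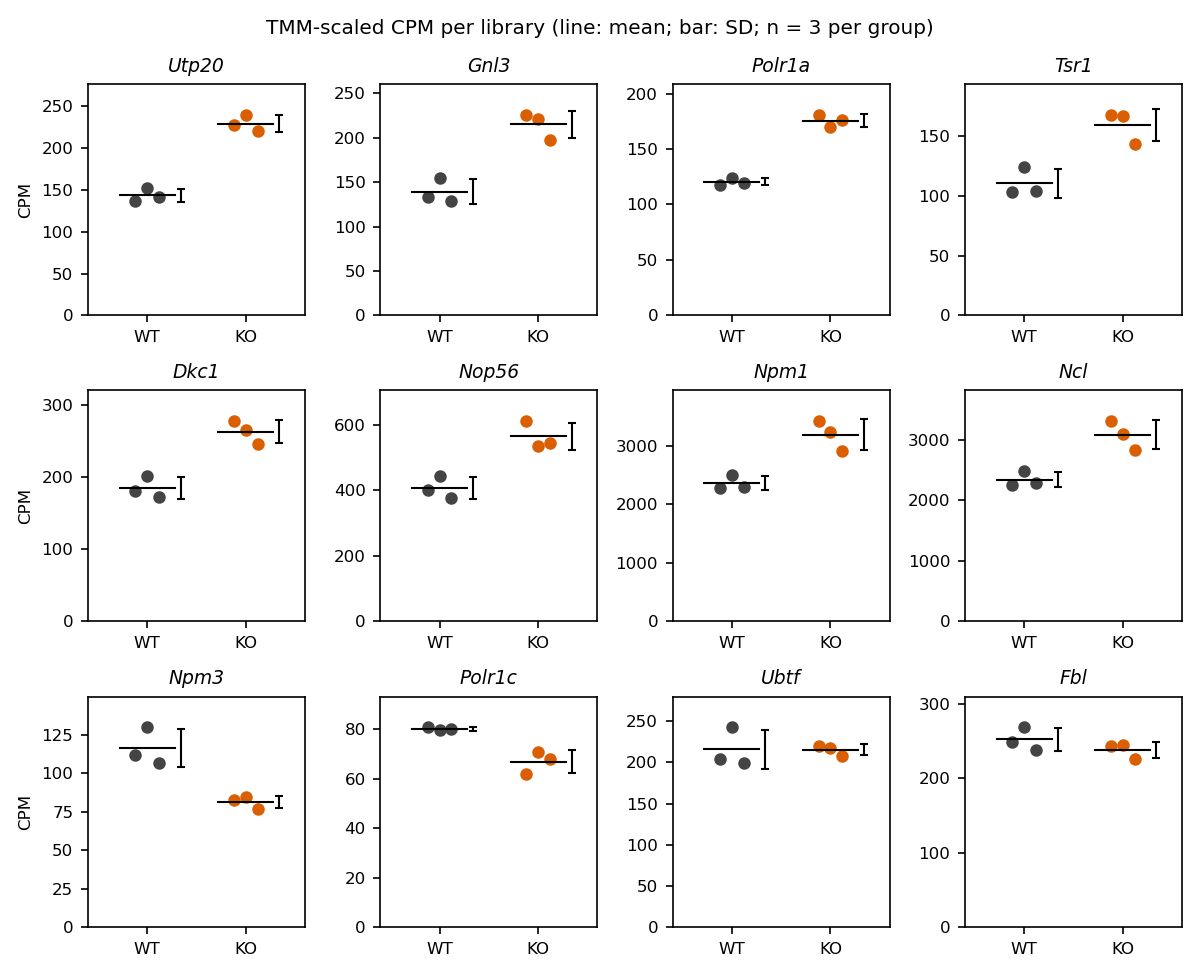
CPM in each library for 12 of the genes, with points for single libraries, a line at the mean and a bar for the SD (n = 3 per group, axes from 0). The WT and knockout points of Utp20 (136 to 152 and 219.5 to 239.5) are well apart, while those of Ubtf and Fbl overlap.

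The snoRNPs are of 2 classes, each with its own set of core proteins, and in each set a single gene rose. Box C/D snoRNPs place 2′-O-methyl groups on ribosomal RNA through the methyltransferase fibrillarin, encoded by Fbl. Its partners NOP56 and NOP58 are paralogs that bind side by side on the RNA. Nop56 (ENSMUSG00000027405.17) was at 399, 443 and 378 CPM in WT and 613, 535 and 545 CPM in knockout (0.47 ± 0.08, adjusted p = 0.00117). Nop58 was at 266, 317 and 253 CPM in WT and 333, 322 and 288 CPM in knockout, with WT replicate 2 inside the knockout range (0.17 ± 0.09, adjusted p = 0.143). Fbl was at 252 ± 15.9 and 238 ± 10.7 CPM (-0.08 ± 0.07, adjusted p = 0.322). Rrp9, the protein particular to the U3 snoRNP that starts small subunit assembly, was at 70.2 ± 11.4 and 59.7 ± 3.87 CPM (-0.23 ± 0.11, adjusted p = 0.112).

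H/ACA snoRNPs convert uridine to pseudouridine through dyskerin, encoded by Dkc1. Dkc1 (ENSMUSG00000031403.15) was at 181, 202 and 172 CPM in WT and 278, 265 and 246 CPM in knockout, with no overlap (0.51 ± 0.07, adjusted p = 0.000557). Nop10 (ENSMUSG00000027133.4), a very small core protein that binds dyskerin, was at 73.3, 71.6 and 58.6 CPM in WT and 48.7, 56.6 and 58.4 CPM in knockout (-0.31 ± 0.10, adjusted p = 0.0274). WT replicate 3 and knockout replicate 3 almost met. That call was lost without WT replicate 1, without WT replicate 2 and without knockout replicate 1 (adjusted p = 0.101, 0.0905 and 0.0829), with upper-quartile factors (adjusted p = 0.0681), and without the 3 libraries with raised B cell markers (adjusted p = 0.065). Nhp2 and Gar1, the other two core proteins, were not called (-0.05 ± 0.10 and 0.17 ± 0.08, adjusted p = 0.723 and 0.108).

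Some of these genes also carry snoRNAs, the guide RNAs of the same particles, in their introns. In the GENCODE M21 annotation (GRCm38), 21 snoRNA genes lie inside 7 of the 40 genes on the same strand, all within introns of the main coding transcript. This property was looked at after the fold changes were known. The hosts are Ncl, Nop56, Nop58, Dkc1, Wdr43, Tsr1 and Gnl3. Of these 7 genes 6 rose, 0 fell and Nop58 was not called, and of the 33 others 6 rose and 5 fell. Their median log2 fold changes were 0.47 and 0.015. Of 200 other protein-coding hosts tested 42 rose and 54 fell (21.0% and 27.0%), near the 21.9% and 28.5% of 12333 protein-coding genes without a snoRNA gene. Of the 29 hosts among cytosolic ribosomal protein genes 0 rose and 17 fell, and of the other 171 hosts 42 rose and 37 fell. The counts of the host genes do not measure the intronic RNAs themselves. Among the tested rows 18 are annotated as snoRNA genes, and whether any of them is among the 21 was not looked at.

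The guides below are shown because they come from the host genes whose changes were just given, 5 from hosts that rose and the last from Nop58. Capitals mark the letters TGATGA of box C and CTGA of box D, or for Snora75 the ACA box, found by a search for those exact letters near the ends. The search found both C and D letters in 9 of the 21 snoRNAs. The sequences are those of GENCODE M21 transcripts, 5′ to 3′ in DNA letters.
Snord69 in Gnl3 (chr14:31014287-31014366, minus strand): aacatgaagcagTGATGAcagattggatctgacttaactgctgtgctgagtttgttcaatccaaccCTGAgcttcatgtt
Snord82 in Ncl (chr1:86356261-86356330, minus strand): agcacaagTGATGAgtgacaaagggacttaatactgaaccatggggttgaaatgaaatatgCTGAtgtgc
Snora75 in Ncl (chr1:86351169-86351301, minus strand): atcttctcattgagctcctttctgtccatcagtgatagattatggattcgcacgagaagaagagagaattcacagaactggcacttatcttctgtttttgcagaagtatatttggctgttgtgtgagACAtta
Snord110 in Nop56 (chr2:130275506-130275573, plus strand): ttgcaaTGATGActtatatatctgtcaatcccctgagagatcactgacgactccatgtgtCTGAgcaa
Snord92 in Wdr43 (chr17:71631281-71631365, plus strand): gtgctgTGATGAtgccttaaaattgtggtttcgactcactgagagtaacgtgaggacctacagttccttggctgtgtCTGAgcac
Snord11 in Nop58 (chr1:59704790-59704873, plus strand): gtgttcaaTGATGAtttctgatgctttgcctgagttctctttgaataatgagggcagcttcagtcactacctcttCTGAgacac
In each of the 5 C/D guides box C lies near the 5′ end and box D near the 3′ end, the pair that folds together and binds the proteins encoded by Nop56, Nop58 and Fbl.

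The small subunit processome is the large particle that forms on the nascent precursor. Utp20 (ENSMUSG00000004356.9), a very long repeat protein of that particle, was at 136, 152 and 142 CPM in WT and 227, 239.5 and 219.5 CPM in knockout. This was the largest increase among the 40 (0.68 ± 0.06, adjusted p = 5.06e-05), and all 3 knockout values were above every WT value. Wdr43 (ENSMUSG00000041057.11), which belongs to the subcomplex that binds first and links transcription to processing, was at 201, 219 and 186 CPM in WT and 265, 247 and 233 CPM in knockout (0.30 ± 0.08, adjusted p = 0.0095). Other members of that early subcomplex did not follow. Heatr1 was at 183 ± 12.5 and 187 ± 2.62 CPM (0.03 ± 0.06, adjusted p = 0.741), and Wdr75 and Utp4 had log2 fold changes of -0.01 ± 0.07 and -0.13 ± 0.07 (adjusted p = 0.902 and 0.14). Utp14a (ENSMUSG00000063785.13), the activator of a helicase that frees the U3 snoRNA, was at 92.9, 93.1 and 96.0 CPM in WT and 83.2, 81.9 and 74.7 CPM in knockout (-0.23 ± 0.06, adjusted p = 0.0107). It was not called with upper-quartile factors or without the 3 libraries with raised B cell markers (adjusted p = 0.0592 and 0.1005). Nop14 was not called (0.07 ± 0.07, adjusted p = 0.436).

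Of the 4 genes of late 40S maturation and export 3 rose. Tsr1 (ENSMUSG00000038335.14), a GTPase-like factor that holds the immature 40S particle in a form that cannot yet translate, was at 103, 124 and 104 CPM in WT and 168, 166 and 144 CPM in knockout (0.53 ± 0.09, adjusted p = 0.0012). Nob1 (ENSMUSG00000003848.15), the nuclease that makes the final cut of 18S ribosomal RNA, was at 62.9, 72.5 and 59.7 CPM in WT and 79.2, 78.5 and 77.7 CPM in knockout (0.27 ± 0.08, adjusted p = 0.0145). Its knockout values were nearly equal, and its call was lost without WT replicate 1 (adjusted p = 0.0636). Rrp12 (ENSMUSG00000035049.5), a factor for the export of pre-ribosomes, was at 98.3, 101 and 91.9 CPM in WT and 120.0, 107 and 114 CPM in knockout (0.23 ± 0.06, adjusted p = 0.0159). The groups did not overlap, and the call was lost without WT replicate 1 or knockout replicate 1 (adjusted p = 0.0511 and 0.0646). Bysl, bystin, which acts in the same pathway, was at 64.4 ± 8.53 and 61.2 ± 1.64 CPM (-0.07 ± 0.09, adjusted p = 0.522).

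The 9 genes of the large subunit were mostly not called. Gnl3 (ENSMUSG00000042354.8), nucleostemin, a GTP-binding nucleolar protein of dividing cells, was the exception on the higher side. It was at 133, 155 and 129 CPM in WT and 226, 222 and 198 CPM in knockout (0.63 ± 0.08, adjusted p = 0.000312). Ebna1bp2 (ENSMUSG00000028729.16), an early assembly factor, was at 132, 147 and 120.4 CPM in WT and 115, 117 and 103 CPM in knockout (-0.26 ± 0.08, adjusted p = 0.0268). Its call was lost without WT replicate 1, WT replicate 2 or knockout replicate 3 (adjusted p = 0.0658, 0.0694 and 0.102) with upper-quartile factors (adjusted p = 0.0725), and without the 3 libraries with raised B cell markers (adjusted p = 0.2504). The complex of PES1, BOP1 and WDR12, which is needed to process the 28S precursor, showed no called gene. Pes1 was at 157 ± 12.3 and 146 ± 3.27 CPM (-0.10 ± 0.07, adjusted p = 0.224), Bop1 at 118 ± 18.6 and 105 ± 4.27 CPM (-0.16 ± 0.10, adjusted p = 0.237), and Wdr12 at 71.3 ± 4.62 and 76.4 ± 3.70 CPM (0.10 ± 0.07, adjusted p = 0.254). The methyltransferase gene Nop2 had a log2 fold change of 0.17 ± 0.08 (adjusted p = 0.105), and the assembly factor genes Nop16, Rrs1 and Rrp1b had values of 0.02 ± 0.10, 0.03 ± 0.13 and 0.05 ± 0.07 (adjusted p = 0.916, 0.871 and 0.572). For Rrs1 the 95% interval ran from -0.28 to 0.34, so a change within these bounds in either direction is not excluded with these 3 libraries a group.

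Of the 17 calls, 12 held under every alternative other than a test against a 1.2-fold change: Polr1a, Npm1, Ncl, Mybbp1a, Nop56, Dkc1, Utp20, Wdr43, Tsr1 and Gnl3 as higher, and Npm3 and Polr1c as lower. The alternatives include the one that leaves knockout replicate 1 alone, where the 2 WT libraries supply all of the spread and the lone library is assumed to vary like them. Against a 1.2-fold change 7 genes passed as higher and only Npm3 as lower (adjusted p = 0.00855). The 7 were Polr1a, Npm1, Nop56, Dkc1, Utp20, Tsr1 and Gnl3, with adjusted p from 0.00035 to 0.0325.

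WT replicate 2 ran high for nearly the whole machinery. It had the highest WT value in 37 of the 40 genes, and WT replicate 3 the lowest in 29. The median deviation of the 40 from their group mean was 0.13 on the log2 scale in WT replicate 2, -0.04 in replicate 1 and -0.10 in replicate 3, where the medians over all genes were between -0.001 and 0.007. The 123 further assembly genes deviated in the same way, by 0.118, -0.031 and -0.088 in WT replicates 2, 1 and 3. In knockout, replicate 1 was highest in 23 of the 40 and replicate 3 lowest in 29. Without WT replicate 2, 17 of the 40 were higher and 3 lower. That library is also one of those with raised B cell markers, and what part they have in its higher values was not tested.

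**Figure D3:**
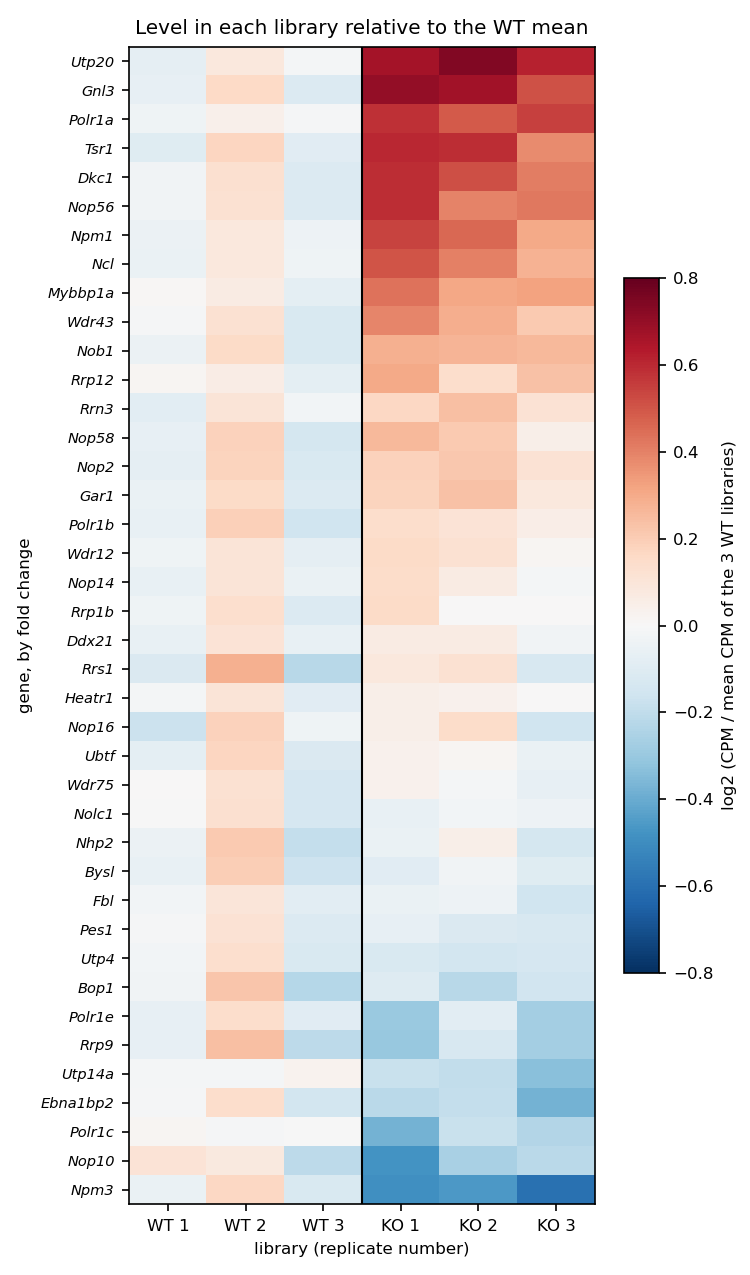
Colour gives log2 of the CPM in each library over the mean of the 3 WT libraries, with genes in rows from the largest increase to the largest decrease and the 6 libraries in columns. The column of WT replicate 2 is warm in nearly all rows (highest WT value in 37 of 40 genes), and the knockout columns are strongly warm at the top and cold at the bottom.

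Summed over the 40 genes, the level was 10237, 11345 and 10019.7 CPM in WT and 13463, 12882 and 11976 CPM in knockout. The means differed 1.21-fold, and the groups did not overlap. Ncl and Npm1 gave 4703 ± 243 CPM of this sum in WT and 6280 ± 508 in knockout. The other 38 genes gave 5831 ± 477 and 6493 ± 242 CPM, a ratio of 1.11, with WT replicate 2 (6362) above knockout replicate 3 (6232).

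Beyond the 40, 123 further genes of ribosome assembly from further lists were tested. Of these 17 rose, 26 fell and 80 were not called, or 13.8% higher and 21.1% lower, with a median log2 fold change of -0.04. Without WT replicate 2 the number that was higher was 29, and with upper-quartile factors 33. Of 9 other RNA polymerase I genes 3 rose and 3 fell. Taf1c and Taf1d, subunits of the SL1 factor that binds the ribosomal promoter, rose (0.56 ± 0.08 and 0.45 ± 0.08, adjusted p = 0.000375 and 0.00196). Polr1d, the partner of Polr1c, and Polr1h fell (-0.39 ± 0.08 and -0.48 ± 0.10, adjusted p = 0.00312 and 0.00434). Of 9 other snoRNP genes 1 rose and 4 fell. The gene that rose was Pih1d1, a snoRNP assembly factor (0.56 ± 0.09, adjusted p = 0.000812). Shq1, which encodes the chaperone of dyskerin, fell (-0.51 ± 0.10, adjusted p = 0.00275), as did Naf1, an H/ACA assembly factor, and Znhit3 (-0.36 ± 0.09 and -0.43 ± 0.10, adjusted p = 0.00755 and 0.00745).

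Of 42 other small subunit genes 7 rose and 9 fell, and of 49 other large subunit genes 5 rose and 8 fell. Nat10, the cytidine acetyltransferase of 18S ribosomal RNA, rose by 0.37 ± 0.07 on the log2 scale (adjusted p = 0.00189). Fcf1, Dcaf13 and Nol7 fell (-0.36 ± 0.07, -0.31 ± 0.06 and -0.41 ± 0.08, adjusted p = 0.00215, 0.00224 and 0.00238). Mdn1, the giant motor ATPase that strips factors from the pre-60S particle, rose from 165 ± 4.40 to 235 ± 13.0 CPM (0.51 ± 0.06, adjusted p = 0.000179). Rrp1, the paralog of Rrp1b, fell from 266.5 ± 5.22 to 206 ± 0.67 CPM (-0.37 ± 0.05, adjusted p = 0.000414). Eif6, which keeps the new 60S subunit from joining too early, fell by 0.44 ± 0.09 on the log2 scale (adjusted p = 0.00308), and Pak1ip1 by 0.31 ± 0.06 (adjusted p = 0.00257).

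The ribosomal proteins, which the machinery assembles, gave other counts. Of 81 cytosolic ribosomal protein genes 0 rose and 49 fell, and their median log2 fold change was -0.25. The share called lower was 60.5%, against 12.5% of the 40 assembly genes and 24.5% of all genes tested. Of protein-coding genes with up to 1000 coding bases 36.5% were lower, and the lists were not matched for length or level. Rps14, for example, fell from 863 ± 73.4 to 589.9 ± 17.7 CPM (-0.55 ± 0.07, adjusted p = 0.000369). Rpl22 and Rpl26 fell as well (-0.49 ± 0.07 and -0.41 ± 0.06, adjusted p = 0.000402 and 0.000608). Of 75 mitochondrial ribosomal protein genes 3 rose and 42 fell, with a median of -0.27. Those with the smallest p were Mrps16, Mrpl28, Mrpl34 and Mrpl18, with log2 fold changes from -0.67 to -0.55 and adjusted p from 0.000119 to 0.000411. Lists of genes were compared by these counts and medians only, and the difference between lists was not tested.

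**Figure D4:**
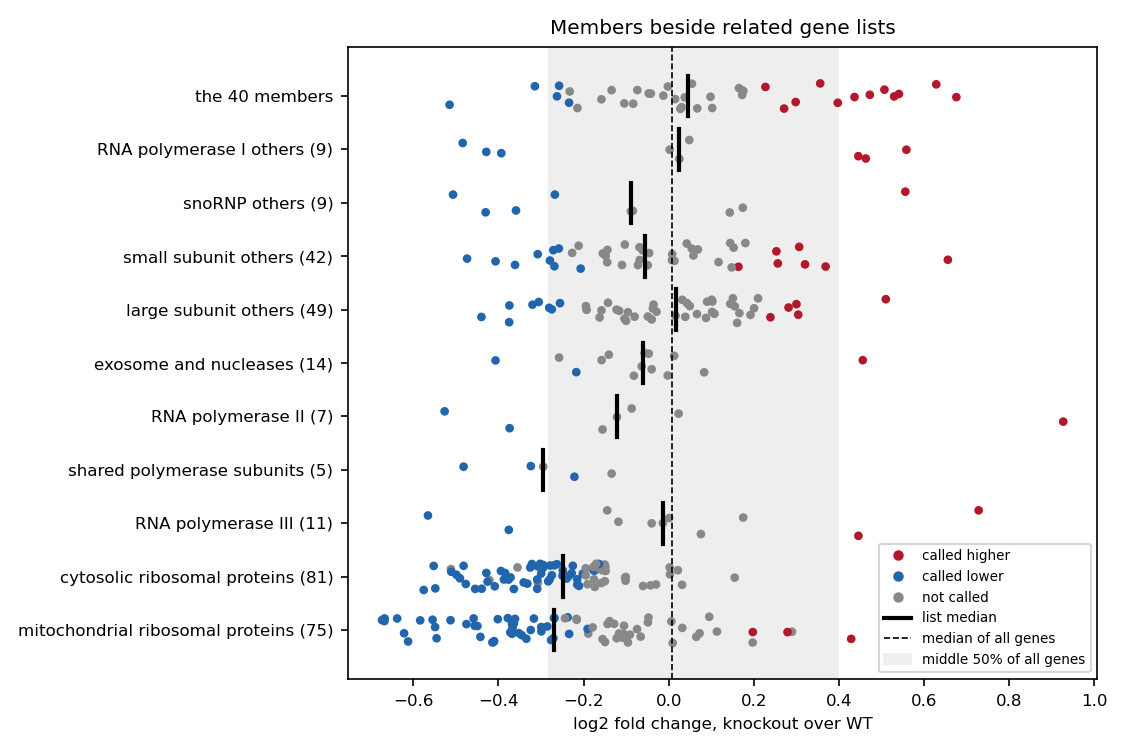
Each point is a gene, placed by its log2 fold change of knockout over WT and coloured by its call, in the 40 genes and 10 related lists. Black bars are list medians, the dashed line is the median of all genes (0.0087) and the grey band holds their middle 50%. The ribosomal protein lists lie to the left of the 40 genes, with medians of -0.25 and -0.27 against 0.046.

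Among the 40 genes the calls differed by size. The genes that fell encode short proteins, apart from Utp14a: coding lengths were 192 bases for Nop10, 525 for Npm3, 918 for Ebna1bp2 and 1038 for Polr1c. Of the 6 genes with a coding length over 3000 bases 4 rose and 0 fell, namely Rrp12, Mybbp1a, Polr1a and Utp20. Of the 8 genes under 1000 bases 1 rose (Npm1) and 3 fell (12.5% and 37.5%). Across the 40 genes Spearman's rho of coding length with log2 fold change was 0.40. It was 0.31 across the 123 further assembly genes and 0.19 across 12498 protein-coding genes of the table. Of all protein-coding genes tested, 16.3% were higher and 36.5% lower up to 1000 bases, near the shares of the 8 short genes. Over 3000 bases 34.1% were higher and 17.4% lower. Genes are not independent replicates, all share the same 6 libraries, and this relation was looked at after the fold changes were known. Whether transcript length itself enters the fold changes of the 40 was not tested.

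**Figure D5:**
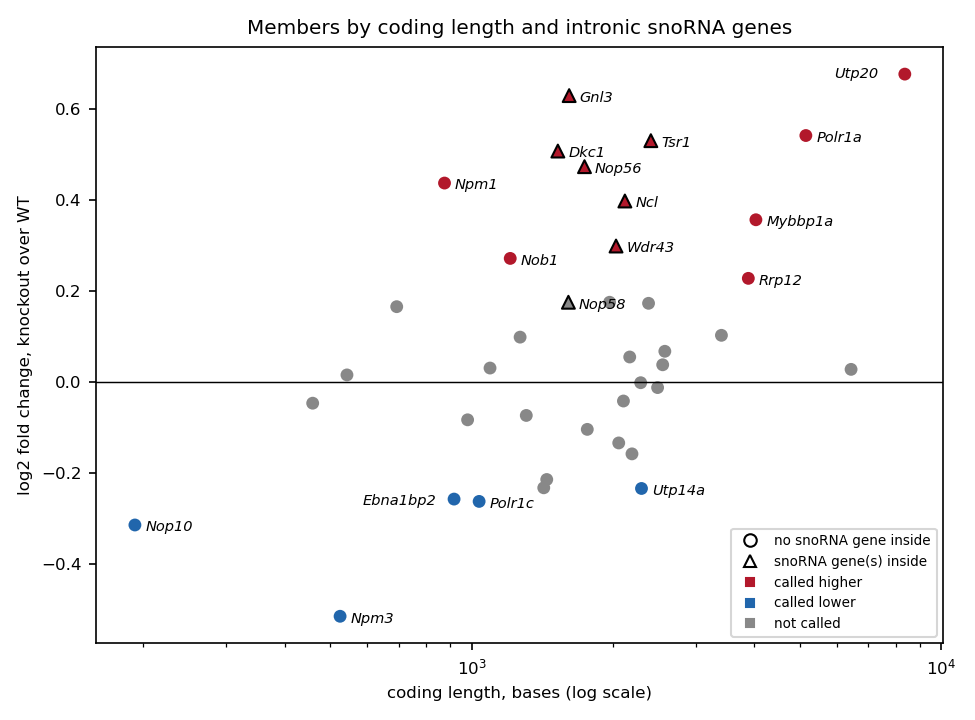
Log2 fold change of knockout over WT against coding length (log axis) for the 40 genes, with triangles for genes that hold snoRNA genes and circles for the rest, coloured by call. All 7 triangles lie above 0, and 4 of the 5 genes called lower lie at or below 1038 bases.

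MYC binds DNA at the E-box, whose core letters are CACGTG, a sequence that is its own reverse complement. Myc was at 296, 306 and 261 CPM in WT and 508, 479.9 and 548 CPM in knockout, with no overlap (0.83 ± 0.08, adjusted p = 5.47e-05). RefSeq promoter windows (GRCm38.p6, 250 bases before to 50 after the start) were on hand for 35 of the 40 genes. The letters CACGTG occurred in the windows of 8 genes (22.9%), against 11.7% of 9856 tested protein-coding genes and 8.09% of all 27025 genes with windows. Of the 8 genes 4 rose and 0 fell. Of the 27 genes with windows but without these letters 6 rose and 5 fell. Over all tested protein-coding genes 21.1% of those with the letters and 22.1% of those without were higher, and 26.3% and 29.0% lower. The stretches are shown for the 4 genes that rose and for Rrn3, the only gene with 2 matches, with the E-box in capitals.
Utp20 (chr10:88826765-88826789, minus strand): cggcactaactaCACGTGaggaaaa
Mybbp1a (chr11:72441355-72441376, plus strand): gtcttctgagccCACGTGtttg
Tsr1 (chr11:74898092-74898121, plus strand): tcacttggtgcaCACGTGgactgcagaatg
Wdr43 (chr17:71616220-71616249, plus strand): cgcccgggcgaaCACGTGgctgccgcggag
Rrn3, distal (chr16:13780472-13780501, plus strand): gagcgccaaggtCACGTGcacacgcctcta
Rrn3, proximal (chr16:13780639-13780668, plus strand): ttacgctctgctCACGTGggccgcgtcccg
In the 4 genes that rose the letters begin 18 to 41 bases after the annotated start, and in Rrn3 they begin 215 and 48 bases before it. A place after the start was not particular to genes that rose. The letters begin 16 bases after it in Utp4 and 3 after it in Pes1, neither called (-0.13 and -0.10). In Nop2, also not called (0.17), they begin 60 bases before the start. A match of letters is a description of the window and shows no binding, and these windows were searched after the fold changes were known.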

How the data were processed

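The table holds RNA-seq of 6 libraries, 3 WT and 3 knockout, grouped by sample titles. The authors deposited expected counts, whole-number read estimates per gene, and the tools named in the submitters' processing notes are Salmon, DESeq2 and DESeq, with no version. For their genome build and annotation, the entry is: not given in the sources used here. Every row has at least 10 counts in at least 3 libraries. IDs were matched without version to GENCODE M21 symbols (15138 matched, 314 did not). Whether counting used strand is not stated, and reads of paralogs or pseudogenes (as for Npm1) may be split.

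edgeR 4.0.16 in R 4.3.3 was run with filterByExpr (91 genes removed), TMM factors and a robust fit on genotype alone. The code was tested on simulated data. Alternatives were RLE, upper-quartile and library-total scaling, DESeq2 1.42.0, limma-voom (limma 3.58.1), no filter, at least 50 counts in 3 libraries, a 1.2-fold threshold test, a block for replicate numbers, leaving out libraries singly, the 3 libraries with raised B cell markers left out, and 27 entries raised over 5 times in knockout replicate 2 left out. No replicates were alike within sampling noise: the lowest chi-square per degree of freedom between libraries was 24.31. The fitted biological coefficient of variation was 13.8%.

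The 40 genes and the gene lists were chosen with earlier results of these data known. All 40 are named. From each further list the rule takes up to 4 called genes with the smallest p, and adds Myc. Some genes under this rule are not reported here. Coding length is that of the M21 transcript with the longest coding sequence. Python 3.11.15 and matplotlib 3.10.9 made the figures.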

Additional observations from a re-analysis of the deposited data

How the results depend on the processing

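In 17 alternatives no called gene of the 40 changed direction, and 12 of the 17 calls held in all but the test against 1.2-fold. That test left 3981 of 7311 genes, 7 of the 40 higher and 1 lower, and 7 and 5 of the 123 further assembly genes. Upper-quartile factors gave 2 of the 40 lower and 33 further genes higher. Without the 3 libraries with raised B cell markers 2 of the 40 were lower and 10 further genes lower, from a single knockout library. Leaving out 1 library at a time gave 5524 to 6961 genes, 10 to 17 of the 40 higher and 3 to 8 lower, and 12 to 29 further genes higher and 19 to 31 lower. The cause was not tested.

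Of the 23 genes not called, 10 were called in some alternative and 9 changed sign, none of the 9 with a main log2 fold change beyond 0.158 in size. Sign changes with upper-quartile factors were Ubtf 0.0788, Nolc1 0.0383, Nhp2 0.0342, Wdr75 0.0676 and Bysl 0.0073. With library totals they were Ubtf 0.043, Nolc1 0.0029 and Wdr75 0.0323, and with at least 50 counts Ubtf 0.0439, Nolc1 0.0036 and Wdr75 0.033. Limma-voom gave Ubtf 0.0037. Without the 3 B cell marker libraries the values were Ubtf 0.1297, Nolc1 0.0093, Nhp2 0.0683, Wdr75 0.1025, Bysl 0.0206 and Bop1 0.0245. With 1 library left out the ranges were -0.0565 to 0.0935 for Ubtf, -0.1061 to 0.0248 for Nolc1, -0.1347 to 0.0697 for Nhp2, -0.0762 to 0.051 for Wdr75, -0.0176 to 0.0803 for Heatr1, -0.15 to 0.0367 for Bysl, -0.0653 to 0.1158 for Nop16 and -0.0697 to 0.196 for Rrs1.

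Whether the replicate numbers pair the samples cannot be settled with 3 libraries a group. Over all genes, deviations of same-numbered libraries correlated at -0.098, 0.093 and -0.259. Among the 40, replicate 3 was lowest in 29 genes in WT and in 29 in knockout. With the number as a block 7218 genes were called, 13 of the 40 higher and 6 lower, and Ubtf was at 0.0036. Nop10 was not called with the block (adjusted p = 0.0535), and Rrn3, Polr1e and Rrp9 were (adjusted p = 0.0373, 0.0407 and 0.0334). The lowest WT mean among the 40 was 31.9 CPM, and precision is limited by 3 libraries a group.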

Other observations

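Genes of the other nuclear RNA polymerases were called in both directions. Polr2a, the largest subunit of RNA polymerase II, rose from 438 ± 6.97 to 833 ± 68.8 CPM (log2 fold change 0.93 ± 0.07, edgeR adjusted p = 2.44e-05), while Polr2c and Polr2g fell by 0.53 and 0.37 on the log2 scale, and the other 4 of 7 genes were not called. Polr3b, the second-largest subunit of RNA polymerase III, rose from 39.5 ± 2.39 to 65.4 ± 1.28 CPM (0.73 ± 0.06, adjusted p = 4.02e-05). Polr3d also rose (0.45 ± 0.11), Polr3gl and Polr3f fell (-0.57 ± 0.11 and -0.38 ± 0.07), and 7 of 11 genes were not called. Of the 5 subunits that all nuclear polymerases share 0 rose and 3 fell, Polr2k, Polr2e and Polr2f (-0.48 ± 0.10, -0.22 ± 0.06 and -0.32 ± 0.10).

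Of 14 genes of the RNA exosome and related nucleases, which trim the ends of ribosomal RNA precursors, 1 rose and 2 fell. Exosc10, a nuclear exonuclease of that complex, rose from 97.3 ± 6.34 to 133.5 ± 1.21 CPM (0.46 ± 0.06, adjusted p = 0.000347). Exosc3, a cap subunit, fell from 61.1 ± 4.58 to 46.1 ± 3.19 CPM (-0.41 ± 0.08, adjusted p = 0.00212), and Mtrex, the helicase that feeds the nuclear exosome, fell by 0.22 ± 0.05 on the log2 scale (adjusted p = 0.00664).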
